A study of Mus musculus with 16 samples.

Results

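The genes of the EGF family and its ErbB receptors were followed by RNA-seq across mouse colon organoids, which are cultures of colon epithelium grown in gel. They are 10 genes taken by name out of 54123 in the transcript tables, namely 3 receptors (Egfr, Erbb2 and Erbb3), 6 ligands (Areg, Ereg, Hbegf, Tgfa, Btc and Epgn) and Lrig1, which encodes an inhibitor of the receptors. Reads were summed over the transcripts of each gene in each library. All 10 were among the 15289 genes kept by the filter on low counts, Ereg through its proximal libraries and Epgn through distal WENR-minus libraries, so that tests of Ereg between regions, and of Epgn between regions or on withdrawal in distal organoids, are not given as results. The 16 libraries form 8 groups of 2, from proximal or distal colon, with scramble-sgRNA or Cdx2-sgRNA, in WENR-plus or WENR-minus medium. Cdx2 encodes a homeobox transcription factor of the intestinal epithelium. WENR-plus holds Wnt3a, EGF, Noggin and R-spondin 1, and WENR-minus lacks all of them, so that EGF itself was withdrawn together with the other factors. RNA was taken in month 4 of culture, after a first phase of 2 days in WENR-plus medium and a last phase of 3 days in the medium that names the group.

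All groups came from female mice of 8 weeks that were heterozygous for a Cre-inducible Braf V600E allele and for a tdTomato reporter, and no Cre step is described for these libraries. All carried a lentivirus with Cas9 and a guide RNA and were selected with blasticidin. The 4 combinations of region and guide are called lines below. Single-cell-derived Cdx2-sgRNA organoids were kept where Cdx2 carried frameshifts, whereas no cloning step is described for scramble-sgRNA, so that the guide and the cloning cannot be told apart. How many clones stand behind a line or a replicate is not given in the sources used here. Organoids were derived from 2 mice, and the methods give the 2 replicates of a group as organoids of independent mice. The labels number the replicates 1 and 2 but do not say that a number stands for the same mouse in every group. Reads of the organoids cannot tell fewer cells of a type from less RNA per cell.

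EGF family ligands are made as membrane-bound precursors and are released by proteases of the ADAM family. Amphiregulin (Areg), TGF-alpha (Tgfa) and epigen (Epgn) bind EGFR, and epiregulin (Ereg), HB-EGF (Hbegf) and betacellulin (Btc) bind EGFR and ERBB4. ERBB2 has no known ligand and acts as the partner of the other receptors, and ERBB3, whose kinase is weak, binds neuregulins. LRIG1 lowers the amount of ErbB receptors on the cell and marks stem cells of the intestinal crypt. In the intestine, ErbB signalling through Ras and ERK drives proliferation of crypt cells, which is why EGF is a standard part of organoid medium.

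The 6 ligands share 1 fold, the EGF-like domain, whose 6 cysteines form its disulfide bonds. The coding sequence of that domain is shown for 5 of them because the later results set neighbouring ligand genes against each other, which requires that their reads can be told apart. Each stretch of 108 bases is given from the first to the last cysteine codon, on the coding strand, and the capitals mark the 6 cysteine codons.
Areg: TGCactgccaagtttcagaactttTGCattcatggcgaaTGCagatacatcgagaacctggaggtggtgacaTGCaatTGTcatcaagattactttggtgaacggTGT
Ereg: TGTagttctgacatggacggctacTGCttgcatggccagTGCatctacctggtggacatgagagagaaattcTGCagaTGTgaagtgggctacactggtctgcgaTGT
Epgn: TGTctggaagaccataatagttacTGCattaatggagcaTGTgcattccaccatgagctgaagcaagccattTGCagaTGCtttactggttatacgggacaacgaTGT
Btc: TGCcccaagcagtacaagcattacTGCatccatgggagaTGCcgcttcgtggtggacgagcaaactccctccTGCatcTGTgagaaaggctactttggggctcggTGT
Tgfa: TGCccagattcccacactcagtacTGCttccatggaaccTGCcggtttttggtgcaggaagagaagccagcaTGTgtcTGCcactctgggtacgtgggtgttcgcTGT
In each gene the stretch is split between coding parts of exons 3 and 4 (GRCm38, GENCODE vM21). In Areg these are chr5:91143614-91143690 and chr5:91144334-91144364 on the plus strand. In Ereg they are chr5:91088496-91088572 and chr5:91089081-91089111 and in Epgn chr5:91031152-91031228 and chr5:91032207-91032237, both on the plus strand. In Btc they are chr5:91366121-91366197 and chr5:91362421-91362451 on the minus strand, and in Tgfa chr6:86263200-86263276 and chr6:86269930-86269960 on the plus strand. Aligned in pairs, these stretches were identical at 47.2% (Btc and Epgn) to 62.0% (Tgfa and Btc) of the aligned positions. The longest run of bases shared by any pair of the full transcripts was 11 to 16 bases.

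The libraries held 12465194 to 18922143 counts (median 16836530), of which 15.4 to 28.0% lay in mitochondrial rRNA. The summed level of 6 epithelial markers was 3915 to 17621 CPM (counts relative to library size with TMM scaling, the unit of every level below unless TPM is named). The 6 markers of mesenchyme summed to at most 1.12 CPM with Dcn and Lum at 0, those of immune cells to 1.43 to 10.4 CPM with Adgre1 at 0, and those of endothelium to at most 3.54 CPM with Emcn and Cldn5 at 0. Cdx2 RNA was 142 and 127 CPM in proximal scramble-sgRNA organoids in WENR-plus and 29.9 and 33.3 CPM with Cdx2-sgRNA, and in WENR-minus 203 and 151 and 73.9 and 71.0 CPM. In distal organoids it was 76.8 and 67.9 CPM with scramble-sgRNA and 62.3 and 50.2 CPM with Cdx2-sgRNA in WENR-plus, and 112 and 110.0 and 126 and 86.1 CPM in WENR-minus. It fell in proximal Cdx2-sgRNA organoids (log2 fold change -2.09 ± 0.21, adjusted p = 5.48e-05 in WENR-plus and -1.29 ± 0.20, adjusted p = 0.000679 in WENR-minus, with ± giving the SE) and did not pass in distal ones (-0.36 ± 0.20, adjusted p = 0.857 and -0.07 ± 0.20, adjusted p = 0.876). A frameshift need not lower the level of its RNA, so the distal values do not test the label.

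Per unit of transcript length and over both media and all lines together, the receptor pair Erbb3 and Erbb2 and the ligand Areg stood highest. Over the 16 libraries the median level in TPM, a unit that divides by transcript length, was 94.8 for Areg, 47.3 for Erbb3, 42.4 for Erbb2, 28.4 for Hbegf, 23.8 for Lrig1, 16.3 for Tgfa, 13.8 for Btc and 12.9 for Egfr. In WENR-plus alone Lrig1 stood at a median of 54.9 TPM, above Erbb3 at 35.7 and Erbb2 at 34.7 TPM, and in WENR-minus at 11.1 TPM. In proximal Cdx2-sgRNA libraries Hbegf, at a median of 41.0 TPM, stood above Erbb2 at 33.5 and Areg at 32.3 and below Erbb3 at 43.8 TPM. Ereg had a median of 0.994 TPM that joins 2 far-apart sets of libraries, and Epgn had 0.163 TPM. Erbb3 and Erbb2 moved together over the libraries (Pearson r of log2 CPM 0.98 over 16 libraries), Hbegf and Tgfa did so as well (r 0.89), and Erbb3 and Lrig1 moved in opposite directions (r -0.92). These correlations are descriptions, since all libraries share the media and regions.

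**Figure D1:**
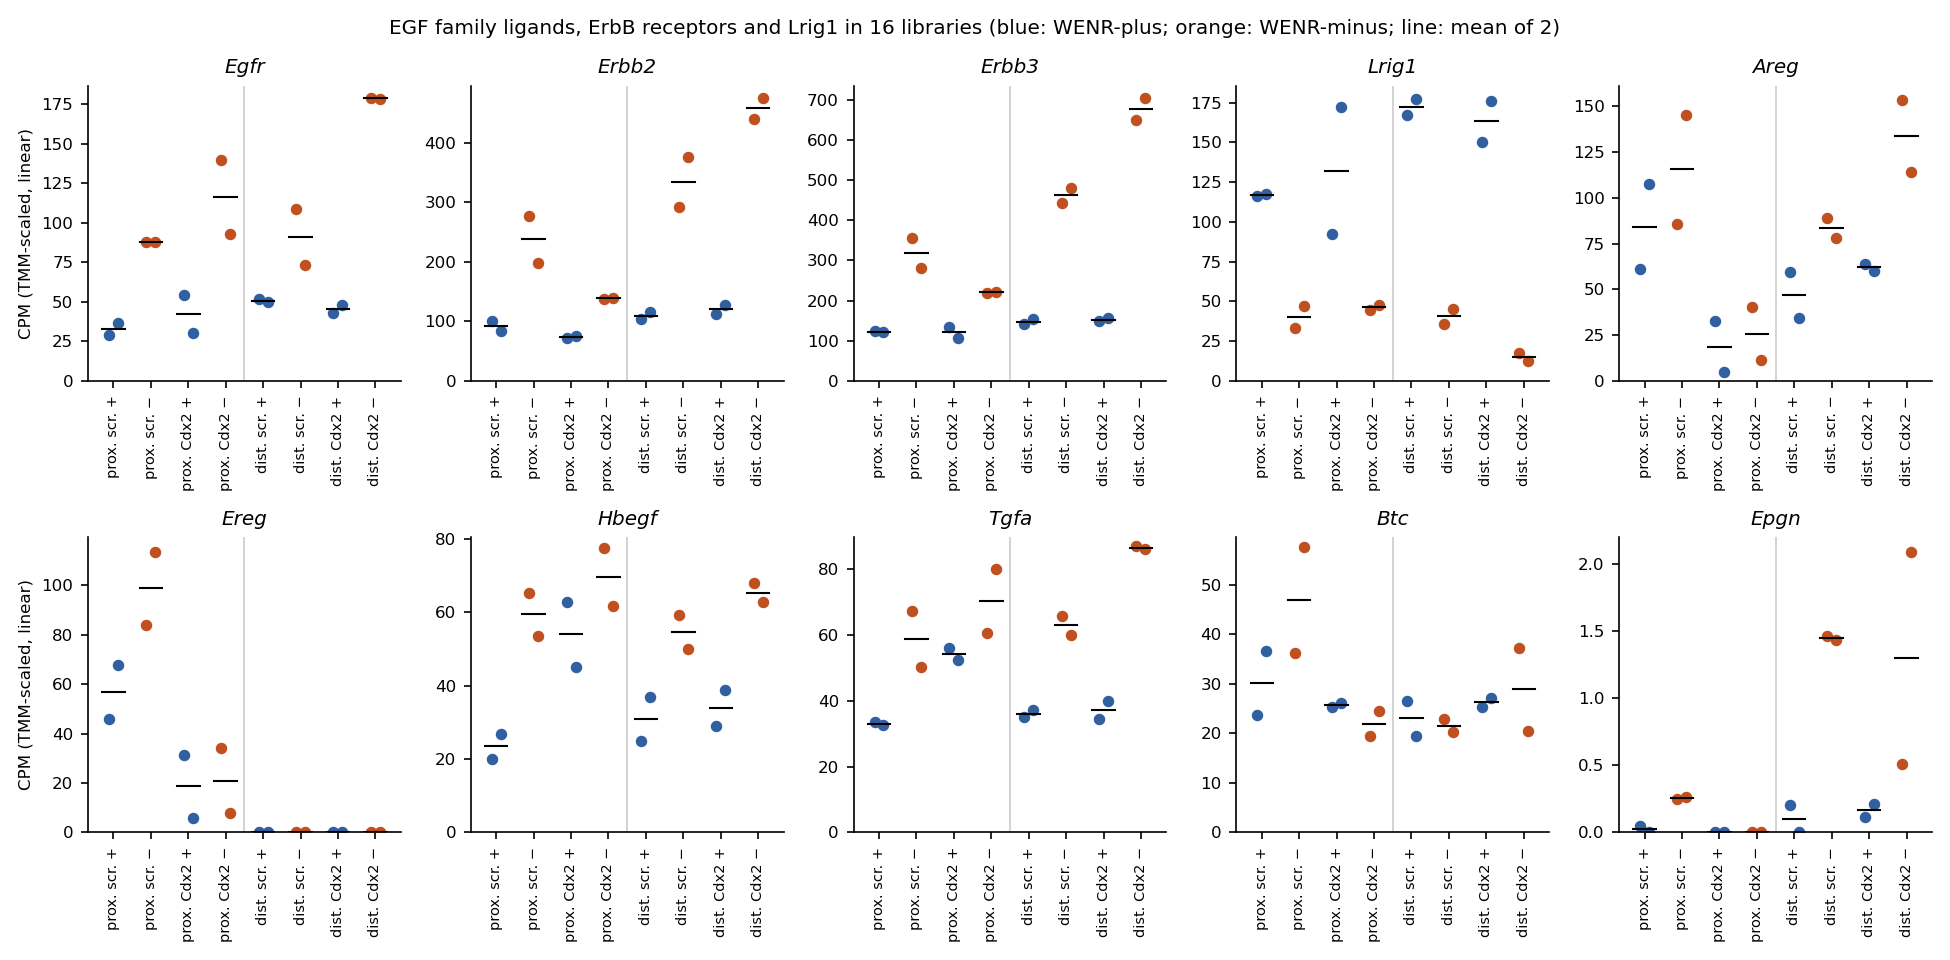
Level of each of the 10 genes (linear CPM, each panel with its own axis from 0) in the 16 libraries; scr. stands for scramble-sgRNA, Cdx2 for Cdx2-sgRNA, + (blue) for WENR-plus and − (orange) for WENR-minus, points are libraries and lines the mean of 2. Erbb3 lay between 107 and 156 CPM in WENR-plus and between 219 and 705 CPM in WENR-minus, whereas Ereg lay at 5.92 to 114 CPM in proximal and at 0.0769 to 0.335 CPM in distal libraries.

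Withdrawal of the growth factors raised the RNA of Erbb2 and Erbb3 and lowered that of Lrig1 in all 4 lines. Egfr also passed in all 4, but in distal scramble-sgRNA organoids its call depended on the scaling and on single libraries. In proximal Cdx2-sgRNA organoids the calls of all these genes were lost without WENR-plus replicate 2. In proximal scramble-sgRNA organoids Erbb3 went from 124 and 121 CPM in WENR-plus to 356 and 281 CPM in WENR-minus (log2 fold change 1.38 ± 0.15, adjusted p = 0.000234). The distal scramble-sgRNA line went from 142 and 153 to 444 and 482 CPM (1.65 ± 0.15, adjusted p = 3.73e-05). With Cdx2-sgRNA it went from 135 and 107 to 219 and 222 CPM in proximal organoids (0.86 ± 0.15, adjusted p = 0.00559) and from 149 and 156 to 650.1 and 705 CPM in distal ones (2.15 ± 0.16, adjusted p = 4.2e-06). The 8 WENR-minus libraries all lay above the 8 WENR-plus libraries, and the distal Cdx2-sgRNA organoids in WENR-minus were the highest.

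Erbb2, the partner receptor, followed the same pattern at a slightly lower level. It was 101 and 84.4 CPM in WENR-plus and 278 and 199 CPM in WENR-minus in proximal scramble-sgRNA organoids (1.36 ± 0.18, adjusted p = 0.000570). The distal scramble-sgRNA line had 103 and 116 and 292 and 376 CPM (1.60 ± 0.18, adjusted p = 9.81e-05). In proximal Cdx2-sgRNA organoids it was 72.1 and 76.2 and 138 and 139.5 CPM (0.90 ± 0.18, adjusted p = 0.00978), and in distal ones 113 and 127 and 441 and 476 CPM (1.93 ± 0.19, adjusted p = 1.6e-05). The groups in the different media did not overlap in any line. Egfr, the receptor of the ligands measured here, was 29.0 and 36.4 CPM in WENR-plus and 87.5 and 87.9 CPM in WENR-minus in proximal scramble-sgRNA organoids (1.42 ± 0.28, adjusted p = 0.00361). In the distal line with scramble-sgRNA it was 51.7 and 49.8 and 109 and 73.3 CPM (0.84 ± 0.28, adjusted p = 0.0306). With Cdx2-sgRNA it was 54.0 and 30.1 and 139.7 and 93.0 CPM in proximal (1.47 ± 0.28, adjusted p = 0.00803) and 42.6 and 48.0 and 179 and 178 CPM in distal organoids (1.98 ± 0.28, adjusted p = 0.000182). In CPM the media did not overlap within a line for Egfr. In TPM, which has no TMM scaling, Egfr in distal scramble-sgRNA organoids was 13.1 and 12.7 in WENR-plus and 15.9 and 11.1 in WENR-minus, with overlap and a ratio of means of 1.05, beside 1.79 in CPM. On both scales the spread of Egfr between replicates was widest in proximal Cdx2-sgRNA organoids. The rises in distal Cdx2-sgRNA organoids were also smaller in TPM. The ratio of means there was 2.94 beside 4.45 in CPM for Erbb3, 2.52 beside 3.82 for Erbb2 and 2.25 beside 3.94 for Egfr. The media did not overlap on either scale there.

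Lrig1, the receptor inhibitor, fell on withdrawal in all 4 lines, and none of the other 7 genes counted here, Ereg and Epgn set aside, passed downward in any. It was 116 and 118 CPM in WENR-plus and 33.3 and 47.1 CPM in WENR-minus in proximal scramble-sgRNA organoids (-1.54 ± 0.28, adjusted p = 0.00214), and 167 and 177 and 35.9 and 45.2 CPM in distal ones (-2.09 ± 0.28, adjusted p = 0.000225). With Cdx2-sgRNA it was 92.1 and 172 and 44.6 and 47.8 CPM in proximal organoids (-1.52 ± 0.28, adjusted p = 0.00649). The deepest fall was in distal Cdx2-sgRNA organoids, from 150.0 and 176 to 17.7 and 12.8 CPM (-3.42 ± 0.30, adjusted p = 1.04e-05). Every WENR-minus library lay below every WENR-plus library.

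Among the ligands, Hbegf and Tgfa rose on withdrawal in 3 of the 4 lines, but in distal scramble-sgRNA organoids the call of Hbegf depended on the scaling and on single libraries. Hbegf was 20.1 and 26.9 CPM in WENR-plus and 65.4 and 53.5 CPM in WENR-minus in proximal scramble-sgRNA organoids (1.34 ± 0.25, adjusted p = 0.00272), and 24.9 and 36.8 and 59.3 and 49.9 CPM in distal ones (0.82 ± 0.25, adjusted p = 0.0204). In distal Cdx2-sgRNA organoids it was 29.1 and 38.8 and 67.9 and 62.7 CPM (0.94 ± 0.25, adjusted p = 0.00857), with a ratio of means of 1.30 in TPM beside 1.92 in CPM. In proximal Cdx2-sgRNA organoids it was 62.8 and 45.1 and 77.5 and 61.7 CPM, where the groups overlapped (0.37 ± 0.25, adjusted p = 0.364, 95% interval -0.20 to 0.93). Tgfa was 33.6 and 32.5 CPM in WENR-plus and 67.4 and 50.3 CPM in WENR-minus in proximal scramble-sgRNA organoids (0.83 ± 0.17, adjusted p = 0.00417). In distal scramble-sgRNA organoids it was 35.0 and 37.2 and 65.9 and 59.9 CPM (0.80 ± 0.17, adjusted p = 0.00299) and in distal Cdx2-sgRNA organoids 34.6 and 40.0 and 86.9 and 86.0 CPM (1.21 ± 0.17, adjusted p = 0.000152). In proximal Cdx2-sgRNA organoids it was 56.0 and 52.4 and 60.6 and 80.1 CPM, and the difference did not pass (0.38 ± 0.17, adjusted p = 0.162). For both ligands the proximal Cdx2-sgRNA line stood apart by its WENR-plus level, which lay above that of every other WENR-plus library.

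Areg and Btc did not pass in any of the 4 lines in the fit over all groups, though some of the other fits called them. Areg was 61.0 and 108 CPM in WENR-plus and 85.7 and 145 CPM in WENR-minus in proximal scramble-sgRNA organoids (0.46 ± 0.71, adjusted p = 0.667), and 59.4 and 34.3 and 88.9 and 78.0 CPM in distal ones (0.83 ± 0.71, adjusted p = 0.382). With Cdx2-sgRNA it was 32.5 and 4.97 and 40.5 and 11.3 CPM in proximal (0.46 ± 0.73, adjusted p = 0.744) and 64.0 and 59.9 and 154 and 114 CPM in distal organoids (1.11 ± 0.72, adjusted p = 0.226). In both distal lines the media did not overlap, and in both proximal lines they did. Btc was 23.7 and 36.6 CPM in WENR-plus and 36.2 and 57.6 CPM in WENR-minus in proximal scramble-sgRNA organoids (0.64 ± 0.31, adjusted p = 0.145). For distal scramble-sgRNA organoids the values were 26.5 and 19.5 and 22.8 and 20.3 CPM (-0.09 ± 0.31, adjusted p = 0.841). With Cdx2-sgRNA it was 25.2 and 26.2 and 19.4 and 24.4 CPM in proximal (-0.23 ± 0.31, adjusted p = 0.692) and 25.2 and 27.2 and 37.2 and 20.5 CPM in distal organoids (0.14 ± 0.31, adjusted p = 0.744). The mean of the 4 effects of the medium, a contrast chosen after seeing the data that called 59.5% of all genes, passed for Erbb3 (1.51 ± 0.08, adjusted p = 1.05e-07), Erbb2 (1.45 ± 0.09, adjusted p = 3.23e-07), Egfr (1.43 ± 0.14, adjusted p = 5.35e-06), Hbegf (0.87 ± 0.12, adjusted p = 9.12e-05), Tgfa (0.81 ± 0.08, adjusted p = 8.41e-06) and Lrig1 (-2.14 ± 0.14, adjusted p = 4.15e-07). For Areg that mean was 0.72 ± 0.36, adjusted p = 0.106, and with single libraries left out it ranged from 0.47 to 1.20. Areg was higher in WENR-minus in 8 of 8 comparisons of libraries with the same region, guide and replicate number, as were Egfr, Erbb2, Erbb3, Hbegf and Tgfa, and Btc was higher in 4 of 8. The labels do not say that a number marks a shared culture, but same-numbered libraries of a region and guide deviated together between media (r 0.281 to 0.589 over 4 pairs of groups). With the number as a block within each region and guide, a fit chosen after seeing the data, Areg passed in distal scramble-sgRNA (0.88 ± 0.20, adjusted p = 0.00475), proximal Cdx2-sgRNA (0.69 ± 0.22, adjusted p = 0.0446) and distal Cdx2-sgRNA organoids (1.098 ± 0.20, adjusted p = 0.00104), and its mean was 0.79 ± 0.13 with adjusted p = 0.000783. In the same fit Btc passed in proximal scramble-sgRNA organoids (0.63 ± 0.20, adjusted p = 0.0299). With no block, Areg passed in distal scramble-sgRNA and distal Cdx2-sgRNA organoids when the compared libraries alone were fitted (adjusted p = 0.0363 and 0.00633) and without the filter on low counts (0.000464 and 7.32e-07), and Btc passed in proximal scramble-sgRNA organoids without the filter (0.0252).

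Counted over the 8 genes other than Ereg and Epgn, 5 rose and 1 fell in proximal scramble-sgRNA organoids, where 29.4% of all genes passed, 16.4% upward and 12.9% downward. In distal scramble-sgRNA organoids 5 rose and 1 fell, beside 40.4% of all genes (20.3% upward and 20.2% downward). In proximal Cdx2-sgRNA organoids 3 rose and 1 fell, beside 13.5% (8.33% upward and 5.17% downward). In distal Cdx2-sgRNA organoids 5 rose and 1 fell, beside 47.0% (23.0% upward and 24.0% downward). The markers of several cell types moved with the medium as well. The 6 epithelial markers summed to 3915 to 5316 CPM in WENR-plus and 12000 to 17621 CPM in WENR-minus, and the 6 proliferation markers to 1148 to 1627 and 211 to 556 CPM outside the proximal Cdx2-sgRNA line, where they summed to 629 to 774 and 669 to 783 CPM. The 6 colonocyte markers summed to 136 to 624 CPM in WENR-plus and 517 to 15979 CPM in WENR-minus, the 6 stem cell markers to 326 to 546 and 92.2 to 193 CPM, and the 6 goblet cell markers to 606 to 3315 and 5606 to 15315 CPM outside the proximal Cdx2-sgRNA line, where they stayed at 33.6 to 54.6 CPM. Their part in the changes of the receptors, Lrig1 and the ligands was not tested. Without replicate 2 of the proximal Cdx2-sgRNA WENR-plus libraries none of the 4 calls of that line was kept (adjusted p = 0.0520 to 0.0646). In distal scramble-sgRNA organoids the call of Egfr was lost without WENR-plus replicate 1 or 2 or WENR-minus replicate 1 (adjusted p = 0.0714 to 0.254) and that of Hbegf without replicate 1 of either medium (adjusted p = 0.111 to 0.122), and in distal Cdx2-sgRNA organoids that of Hbegf without WENR-plus replicate 1 (adjusted p = 0.0590). With counts scaled for transcript length, Egfr (0.57, adjusted p = 0.113) and Hbegf (0.70, adjusted p = 0.0531) did not pass in distal scramble-sgRNA organoids, and in TPM the media overlapped there for Hbegf as well (ratio of means 1.14, beside 1.77 in CPM). When the compared libraries alone were fitted, none of the 4 calls in proximal Cdx2-sgRNA organoids was kept (adjusted p = 0.122 to 0.143), at fold changes close to those above (Erbb3 0.87, Erbb2 0.90, Egfr 1.47 and Lrig1 -1.52).

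**Figure D2:**
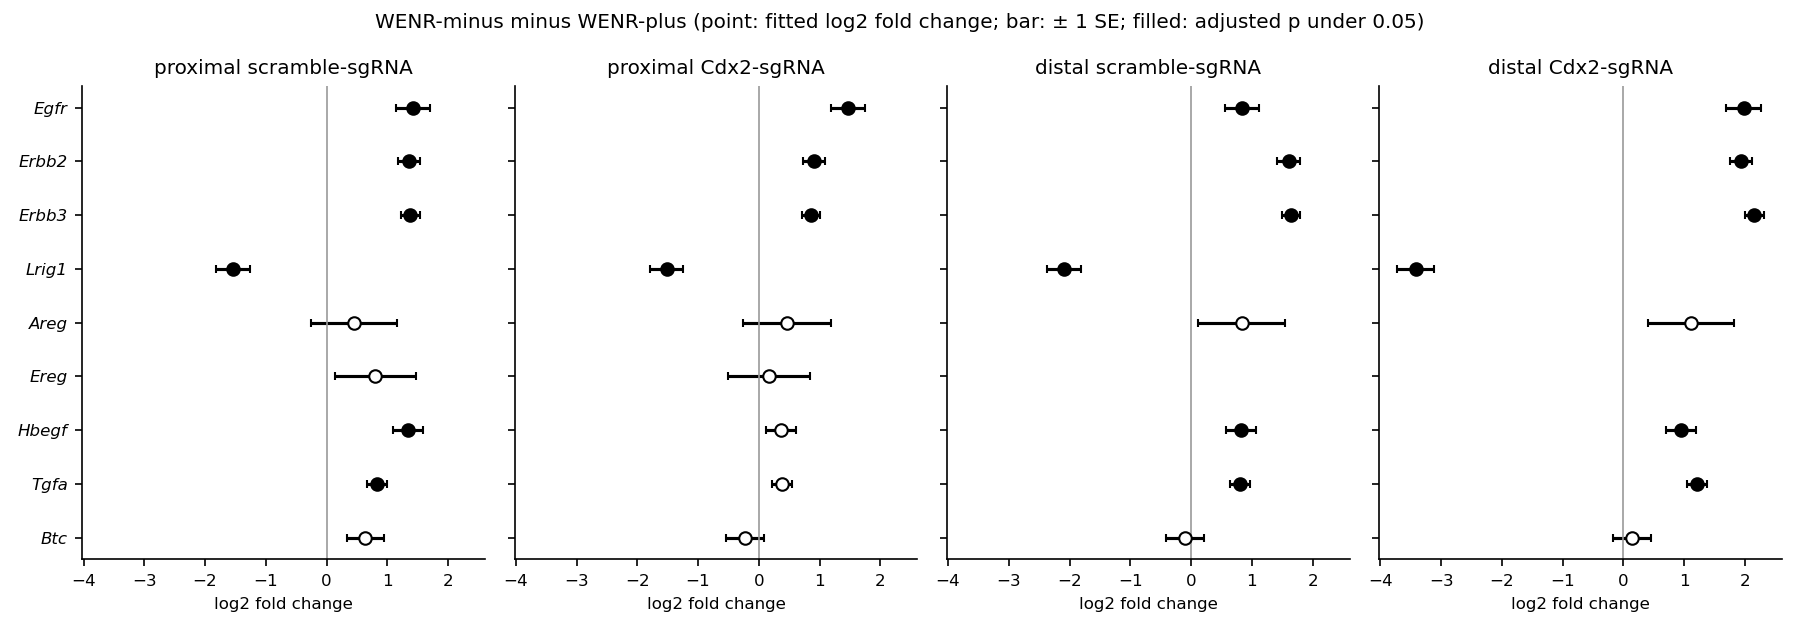
Fitted log2 fold change between WENR-minus and WENR-plus (linear axis; points, with bars of ± 1 SE) for 9 genes in the 4 organoid lines; filled points have an adjusted p under 0.05, and Epgn and distal Ereg are left out for their low counts. Egfr, Erbb2 and Erbb3 lie to the right of 0 and Lrig1 to the left in every line, whereas Hbegf and Tgfa are open in proximal Cdx2-sgRNA organoids at 0.37 and 0.38.

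Ereg, an EGFR and ERBB4 ligand, was read almost entirely in proximal organoids. In proximal scramble-sgRNA organoids it was 45.9 and 67.6 CPM in WENR-plus and 83.9 and 114 CPM in WENR-minus, and in proximal Cdx2-sgRNA organoids 31.2 and 5.92 and 34.1 and 7.83 CPM. In distal scramble-sgRNA organoids it was 0.250 and 0.323 CPM in WENR-plus and 0.0769 and 0.215 CPM in WENR-minus, and with Cdx2-sgRNA 0.172 and 0.106 and 0.254 and 0.335 CPM, which is 1 to 6 reads a library. The regions did not overlap for either guide in either medium. In counts, the proximal scramble-sgRNA libraries held 3535 reads in WENR-minus against 4 distal reads, a depth-scaled ratio of 674 (exact 95% interval 263 to 2476, counting error only), and 2102 against 11 in WENR-plus (195, 109 to 391). With Cdx2-sgRNA the ratio was 63.7 in WENR-minus (607 against 7 reads, 30.7 to 159) and 131 in WENR-plus (650 against 5 reads, 55.7 to 404).

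Ereg lies in a cluster of 4 ligand genes on chromosome 5 that spans 375.5 kb (GRCm38). Epgn (chr5:91027464-91035215, plus strand) is followed after 39.4 kb by Ereg (chr5:91074622-91093646, plus), after 46.0 kb more by Areg (chr5:91139599-91148432, plus) and after 209 kb more by Btc (chr5:91357261-91402994, minus). The other 3 genes did not share the pattern of Ereg. Areg was 34.3 to 154 CPM in distal libraries and 4.97 to 145 CPM in proximal ones, so that a gene 46.0 kb from Ereg was read in all 16 libraries. Btc was 19.5 to 37.2 CPM in distal and 19.4 to 57.6 CPM in proximal libraries. Epgn leaned the other way at very low counts. It had 19 and 20 reads in distal scramble-sgRNA organoids in WENR-minus and 6 and 25 with Cdx2-sgRNA, against 4 and 5 in proximal scramble-sgRNA organoids and 0 in all 4 proximal Cdx2-sgRNA libraries. In WENR-plus it had 4 and 0 and 2 and 4 reads in distal organoids and 1 and 0 in proximal scramble-sgRNA organoids. In WENR-minus the distal level with scramble-sgRNA was 5.68 times the proximal one (39 against 9 reads, exact 95% interval 2.71 to 13.3). With Cdx2-sgRNA the distal level was 14.1 times a floor of 3 counts set for the proximal group (31 reads against 0). The counting error of the 31 reads is not included.

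The promoter of Areg is shown because its gene, in contrast to its neighbour Ereg, was read in both regions and ranged widely between proximal Cdx2-sgRNA libraries. The 250 bases before the start of the RNA (RefSeq, GRCm38.p6, chr5:91139349-91139598, plus strand) read as follows, with TGACGTCA, the full site of CREB, and CTATAAA in capitals.
Areg promoter: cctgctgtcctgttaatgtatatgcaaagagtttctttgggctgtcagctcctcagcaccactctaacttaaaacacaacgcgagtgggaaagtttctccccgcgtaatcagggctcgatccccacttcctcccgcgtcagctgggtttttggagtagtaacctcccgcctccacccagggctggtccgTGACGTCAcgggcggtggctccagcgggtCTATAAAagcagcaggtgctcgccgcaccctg
TGACGTCA, which is its own reverse complement, lies at bases -61 to -54 and was found on both strands in 1.55% of 32851 promoters of the same length. TATAAA lies at -31 to -26 (12.4% of promoters). The letters TTTATNG, a short form of the site of CDX factors, were found on the other strand at -32 to -26 (9.81% of promoters) and overlap TATAAA there, so that they cannot be told apart. The match is not particular to Areg, since the promoter of Epgn held TTTATNG on the other strand at -58 to -52 and TATAAA at -86 to -81. These matches are descriptions of letters and not of binding. Of the 10 genes 7 had a promoter in the table used.

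**Figure D3:**
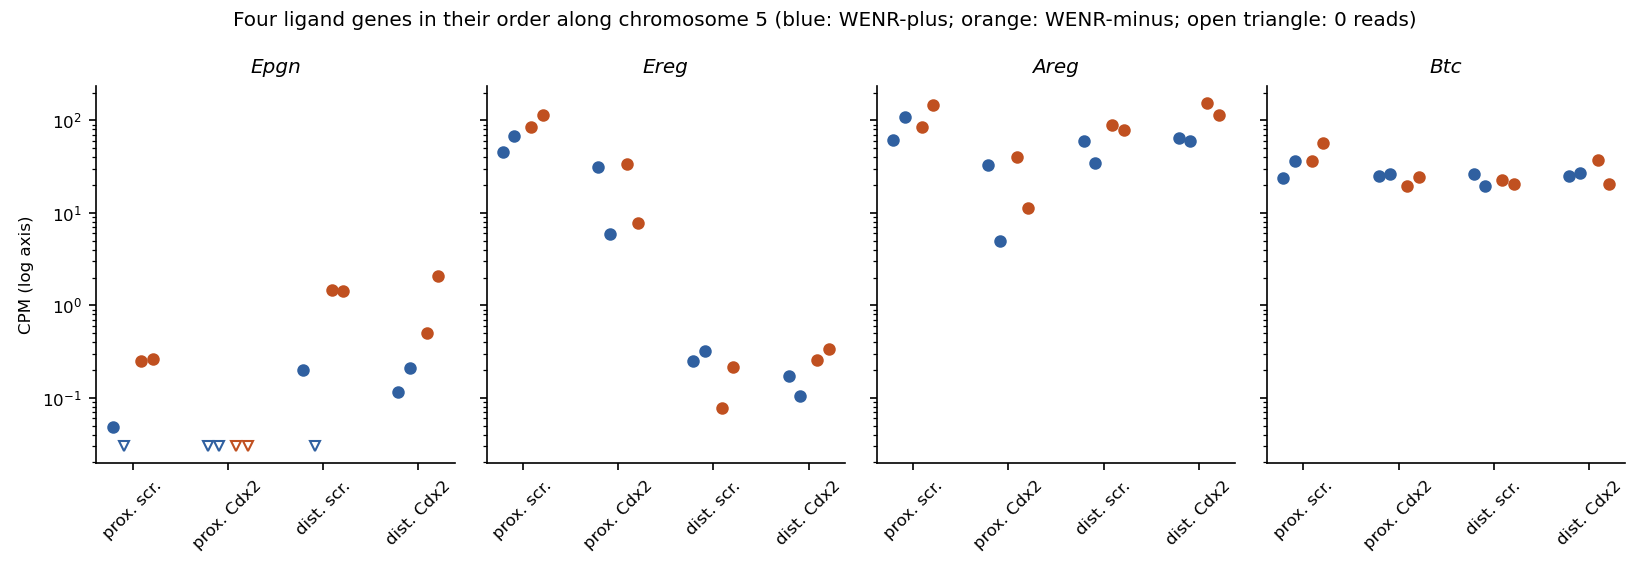
Level in CPM (logarithmic axis) of the 4 ligand genes of the chromosome 5 cluster, in their order along the chromosome, with 1 point per library (blue WENR-plus, orange WENR-minus, open triangles 0 reads; scr. stands for scramble-sgRNA and Cdx2 for Cdx2-sgRNA). Ereg is at 0.335 CPM or less in all 8 distal libraries, whereas Areg, its neighbour, is at 34.3 CPM or more there.

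Of the 8 genes other than Ereg and Epgn, 0 to 4 passed in each comparison of regions. In scramble-sgRNA WENR-plus organoids 0 of the 8 passed in edgeR, where 2.12% of all genes did, with 1 at an unadjusted p under 0.05 and 0 in DESeq2. In scramble-sgRNA WENR-minus organoids, where 9.95% of all genes passed, Btc was higher (1.12 ± 0.31, adjusted p = 0.0447) and Erbb3 lower (-0.54 ± 0.15, adjusted p = 0.0427) in proximal than in distal organoids. With Cdx2-sgRNA 4 of the 8 passed in WENR-minus and 2 in WENR-plus, shares near those of all genes. In WENR-minus, where 49.0% of all genes passed, Erbb2 (-1.72 ± 0.18, adjusted p = 3.07e-05), Erbb3 (-1.62 ± 0.15, adjusted p = 1.22e-05) and Areg (-2.38 ± 0.75, adjusted p = 0.0210) were lower in proximal organoids, and Lrig1 was higher (1.60 ± 0.28, adjusted p = 0.000830). In WENR-plus, where 29.3% of all genes passed, Erbb2 was lower (-0.69 ± 0.18, adjusted p = 0.0151) and Tgfa higher (0.54 ± 0.17, adjusted p = 0.0329) in proximal organoids, and Areg did not pass (-1.73 ± 0.74, adjusted p = 0.0987), though it did without proximal replicate 1 (-3.65, adjusted p = 0.00834) and without the filter on low counts (-1.69, adjusted p = 1.05e-12). The calls of Btc and Erbb3 in scramble-sgRNA were lost without proximal replicate 2 or either distal replicate (adjusted p = 0.143 to 0.294 and 0.107 to 0.278) with counts scaled for transcript length (0.0573 and 0.0556) and when the compared libraries alone were fitted (0.0571 and 0.130), and that of Erbb3 without the filter as well (0.0885). The call of Areg in WENR-minus was lost without proximal replicate 2 (0.122) or distal replicate 1 (0.0791), and those of Erbb2 and Tgfa in WENR-plus without any 1 of the 4 libraries (adjusted p = 0.0586 to 0.107 and 0.0760 to 0.185), with Tgfa also lost in the fit to the compared libraries (0.0524). Cell type markers differed between these regions with Cdx2-sgRNA in WENR-minus. The goblet cell markers summed to 51.4 to 54.6 CPM in proximal and 5770 to 15315 CPM in distal organoids, the colonocyte markers to 517 to 1591 and 14895 to 15979 CPM, the proliferation markers to 669 to 783 and 211 to 304 CPM, and the stem cell markers to 122 to 190 and 92.2 to 99.0 CPM. In WENR-plus the goblet cell markers summed to 33.6 to 39.1 and 642 to 3315 CPM with Cdx2-sgRNA. The enteroendocrine markers summed there to 1.43 to 1.51 and 127 to 146 CPM, and the proliferation markers to 629 to 774 and 1148 to 1572 CPM. The part of these markers in the differences of Erbb2, Erbb3, Areg, Lrig1 and Tgfa was not tested.

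In proximal organoids, Erbb2, Erbb3, Areg, Ereg and Btc fell with Cdx2-sgRNA in WENR-minus, and Hbegf and Tgfa rose in WENR-plus. In WENR-minus 5 of the 10 genes fell and 0 rose, where 30.9% of all genes passed, 12.7% upward and 18.3% downward. Erbb2 fell from 278 and 199 CPM with scramble-sgRNA to 138 and 139.5 CPM with Cdx2-sgRNA (-0.78 ± 0.18, adjusted p = 0.00725), and Erbb3 from 356 and 281 to 219 and 222 CPM (-0.53 ± 0.15, adjusted p = 0.0198). Neither overlapped between guides. Of the ligands, Areg fell from 85.7 and 145 to 40.5 and 11.3 CPM (-2.17 ± 0.74, adjusted p = 0.0454), Ereg from 83.9 and 114 to 34.1 and 7.83 CPM (-2.25 ± 0.70, adjusted p = 0.0303), and Btc from 36.2 and 57.6 to 19.4 and 24.4 CPM (-1.10 ± 0.31, adjusted p = 0.0209). The groups did not overlap for any of these ligands. Egfr did not pass (0.41 ± 0.27, adjusted p = 0.284, 95% interval -0.23 to 1.04), nor did Hbegf (0.23 ± 0.24, adjusted p = 0.514) or Tgfa (0.26 ± 0.17, adjusted p = 0.263).

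None of these 5 proximal calls was kept when the compared libraries alone were fitted (adjusted p = 0.0573 to 0.158). Areg was lost with counts scaled for transcript length (0.0507) and Erbb3 without the filter on low counts (0.0843). Leaving out single libraries changed most of the calls. Without scramble-sgRNA replicate 1 the calls of Erbb2, Erbb3, Areg and Ereg were lost (adjusted p = 0.0618 to 0.205), and without replicate 2 those of Areg, Ereg and Btc (0.0988 to 0.165). Without Cdx2-sgRNA replicate 1 the calls of Erbb3 and Btc were lost (0.0876 and 0.107), and without replicate 2 those of Erbb3, Areg and Ereg (0.0796 to 0.226). Areg and Ereg were lower in replicate 2 than in replicate 1 of the proximal Cdx2-sgRNA organoids in both media, Areg at 4.97 against 32.5 CPM in WENR-plus and at 11.3 against 40.5 CPM in WENR-minus. Markers of secretory cells moved with the guide in this region. In WENR-minus the goblet cell markers summed to 5886 to 6960 CPM with scramble-sgRNA and 51.4 to 54.6 CPM with Cdx2-sgRNA, and the enteroendocrine markers to 142 to 226 and 0.899 to 1.93 CPM. The colonocyte markers summed to 6669 to 9957 and 517 to 1591 CPM. Their part in the falls of Areg, Ereg, Btc, Erbb2 and Erbb3 was not tested.

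In WENR-plus, where 24.8% of all genes passed, 9.94% upward and 14.8% downward, 2 ligands rose in proximal Cdx2-sgRNA organoids and 0 of the 10 genes fell. Hbegf rose from 20.1 and 26.9 to 62.8 and 45.1 CPM (1.20 ± 0.25, adjusted p = 0.00558) and Tgfa from 33.6 and 32.5 to 56.0 and 52.4 CPM (0.71 ± 0.17, adjusted p = 0.0109), and both then overlapped the levels of scramble-sgRNA organoids in WENR-minus. Areg was 61.0 and 108 CPM with scramble-sgRNA and 32.5 and 4.97 CPM with Cdx2-sgRNA, without overlap, and missed the threshold in edgeR (-2.17 ± 0.74, adjusted p = 0.0534), though not in DESeq2 (-2.12, adjusted p = 0.0346). Ereg missed it as well (-1.61 ± 0.68, adjusted p = 0.108). Without Cdx2-sgRNA replicate 1, the higher of the pair, Areg and Ereg passed (adjusted p = 0.00638 and 0.0121). With the replicate number as a block Areg passed as well, at -2.41 with adjusted p = 0.0331. The call of Hbegf was lost without scramble-sgRNA replicate 1 (0.0544), and that of Tgfa without either scramble-sgRNA replicate or Cdx2-sgRNA replicate 1 (0.0516 to 0.0732). Cell type markers moved with the guide in this medium too. The proliferation markers summed to 1339 to 1573 CPM with scramble-sgRNA and 629 to 774 CPM with Cdx2-sgRNA, the goblet cell markers to 606 to 1013 and 33.6 to 39.1 CPM, and the enteroendocrine markers to 54.0 to 74.9 and 1.43 to 1.51 CPM. Their part in the changes of Hbegf and Tgfa was not tested.

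In distal organoids 2 receptors rose with Cdx2-sgRNA and Lrig1 fell. In WENR-minus, where 9.76% of all genes passed, Cdx2-sgRNA raised Egfr from 109 and 73.3 to 179 and 178 CPM (0.97 ± 0.28, adjusted p = 0.0490) and Erbb3 from 444 and 482 to 650.1 and 705 CPM (0.55 ± 0.15, adjusted p = 0.0414). It lowered Lrig1 from 35.9 and 45.2 to 17.7 and 12.8 CPM (-1.41 ± 0.28, adjusted p = 0.0138). The guides did not overlap for these 3 genes. Erbb2 was 292 and 376 and 441 and 476 CPM, also without overlap, and did not pass (0.46 ± 0.18, adjusted p = 0.133). Areg (means of 83.4 and 134 CPM), Tgfa (62.9 and 86.4) and Hbegf (54.6 and 65.3) were also higher with Cdx2-sgRNA without overlap. Btc (21.5 and 28.9 CPM) overlapped between guides. None of these 4 ligands passed. The calls of Egfr and Erbb3 were lost without any 1 of the 4 libraries (adjusted p = 0.0609 to 0.311 and 0.103 to 0.212) and that of Lrig1 without replicate 2 of either guide (0.0998 to 0.111), and all 3 with counts scaled for transcript length (0.0583 to 0.0720). The colonocyte markers summed to 7043 to 11109 CPM with scramble-sgRNA and 14895 to 15979 CPM with Cdx2-sgRNA, the proliferation markers to 382 to 556 and 211 to 304 CPM, and the stem cell markers to 140 to 165 and 92.2 to 99.0 CPM, and their part in these changes was not tested. In WENR-plus none of the 10 genes passed in edgeR, where 0.262% of all genes did, and the count was 0 at an unadjusted p under 0.05 and 0 in DESeq2.

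**Figure D4:**
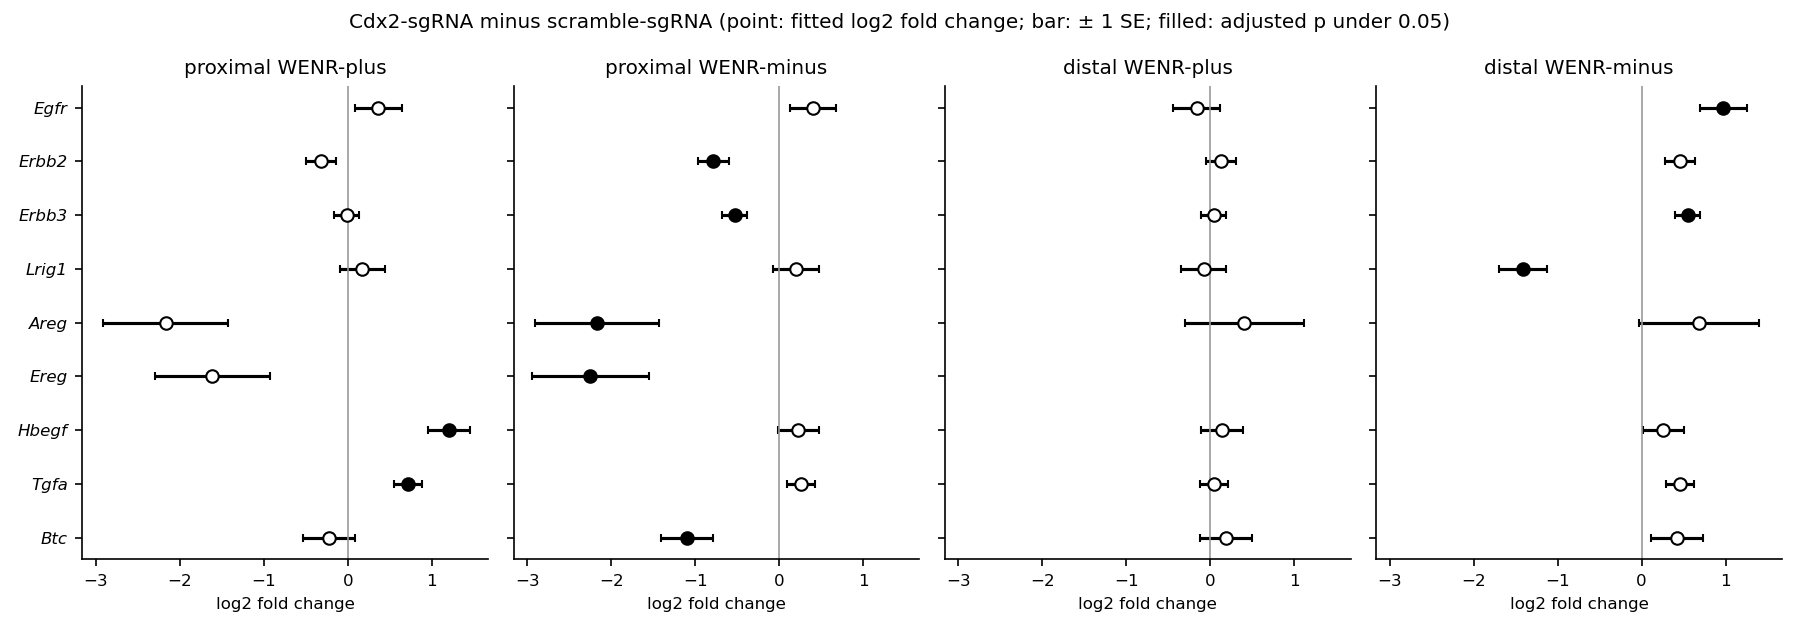
Fitted log2 fold change between Cdx2-sgRNA and scramble-sgRNA (linear axis; points, with bars of ± 1 SE) for 9 genes by region and medium; filled points have an adjusted p under 0.05, and Epgn and distal Ereg are left out for their low counts. In WENR-minus Erbb2 is at -0.78 in proximal and 0.46 in distal organoids and Erbb3 at -0.53 and 0.55.

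The difference between regions in the effect of Cdx2-sgRNA was tested directly. In WENR-minus, where 17.2% of all genes passed this test, 4 of the 8 genes other than Ereg and Epgn did. The effect in proximal organoids was lower than that in distal ones for Erbb2 (difference in log2 fold change -1.24 ± 0.25, adjusted p = 0.00751), Erbb3 (-1.08 ± 0.21, adjusted p = 0.00585) and Btc (-1.52 ± 0.44, adjusted p = 0.0370) and higher for Lrig1 (1.61 ± 0.39, adjusted p = 0.0173). For Areg it was -2.85 ± 1.02, adjusted p = 0.0778, and it passed without the filter (2.91e-18) and when the compared libraries alone were fitted (0.0486), where Btc did not (0.0769). With 1 library left out the difference for Areg ranged from -4.01 to -2.20. With counts scaled for transcript length Lrig1 did not pass. Erbb2 and Erbb3 passed without any 1 of the 8 libraries, at adjusted p of up to 0.0394 and 0.0289. Lrig1 did not pass without replicate 1 of proximal scramble-sgRNA or replicate 2 of proximal Cdx2-sgRNA, distal scramble-sgRNA or distal Cdx2-sgRNA (adjusted p = 0.0504 to 0.0726). Btc passed only without replicate 1 of proximal scramble-sgRNA or replicate 2 of distal Cdx2-sgRNA (adjusted p = 0.0560 to 0.144 without each of the other 6). In WENR-plus, where 5.70% of all genes passed, none of the 8 did in edgeR, 3 had an unadjusted p under 0.05 and 1, Hbegf, passed in DESeq2. The differences were -2.57 ± 1.02, adjusted p = 0.176 for Areg, 1.06 ± 0.35, adjusted p = 0.106 for Hbegf and 0.67 ± 0.24, adjusted p = 0.133 for Tgfa. Areg and Hbegf passed without the filter on low counts. With 1 library left out the difference for Areg ranged from -4.49 to -1.77.

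The effect of the medium was compared in the same way. Between guides in proximal organoids 4.38% of all genes passed and none of the 8, with 2 at an unadjusted p under 0.05 and 0 in DESeq2. Hbegf had a difference of -0.97 ± 0.35, adjusted p = 0.133 (95% interval -1.78 to -0.17) and Erbb3 one of -0.52 ± 0.21, adjusted p = 0.184, so that a smaller response of Hbegf with Cdx2-sgRNA than with scramble-sgRNA was called only without the filter on low counts (-1.02, adjusted p = 0.0192). Between guides in distal organoids 0% of all genes passed, and of the 8 genes 3 had an unadjusted p under 0.05 and 0 passed in DESeq2. The differences there were -1.33 ± 0.39, adjusted p = 0.317 for Lrig1, 1.14 ± 0.39, adjusted p = 0.394 for Egfr and 0.51 ± 0.21, adjusted p = 0.483 for Erbb3. Without the filter Lrig1 (-1.31, adjusted p = 0.00291) and Egfr (1.15, adjusted p = 0.0158) passed. Between regions in scramble-sgRNA organoids 0.0719% of all genes passed and none of the 8, with 0 at an unadjusted p under 0.05 and 0 in DESeq2.

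The mix of ligand RNA differed between lines more than the mix of receptor RNA. The 6 ligands summed to 66.6 to 322 TPM a library, and the 3 receptors to 53.8 to 91.7 TPM in WENR-plus and 114 to 242 TPM in WENR-minus. Areg made up 49.9 to 70.4% of ligand TPM in the 12 libraries outside the proximal Cdx2-sgRNA line. In that line it made up 36.4 and 10.6% in WENR-plus and 39.6 and 16.3% in WENR-minus, without overlap with the other libraries. Hbegf made up 31.0 to 41.4% there and 7.44 to 27.9% elsewhere. Ereg made up 9.76 to 11.8% of ligand TPM in proximal scramble-sgRNA organoids, 2.59 to 7.62% in proximal Cdx2-sgRNA organoids and at most 0.105% in distal ones. The ratio of Areg to Ereg stayed at 3.76 to 7.08 in all 8 proximal libraries while the level of Areg ranged from 4.97 to 145 CPM. Of receptor TPM, Erbb3 made up 43.9 to 50.8%, Erbb2 35.8 to 46.8% and Egfr 5.58 to 19.7%, and Erbb3 stood at 0.973 to 1.42 times Erbb2.

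**Figure D5:**
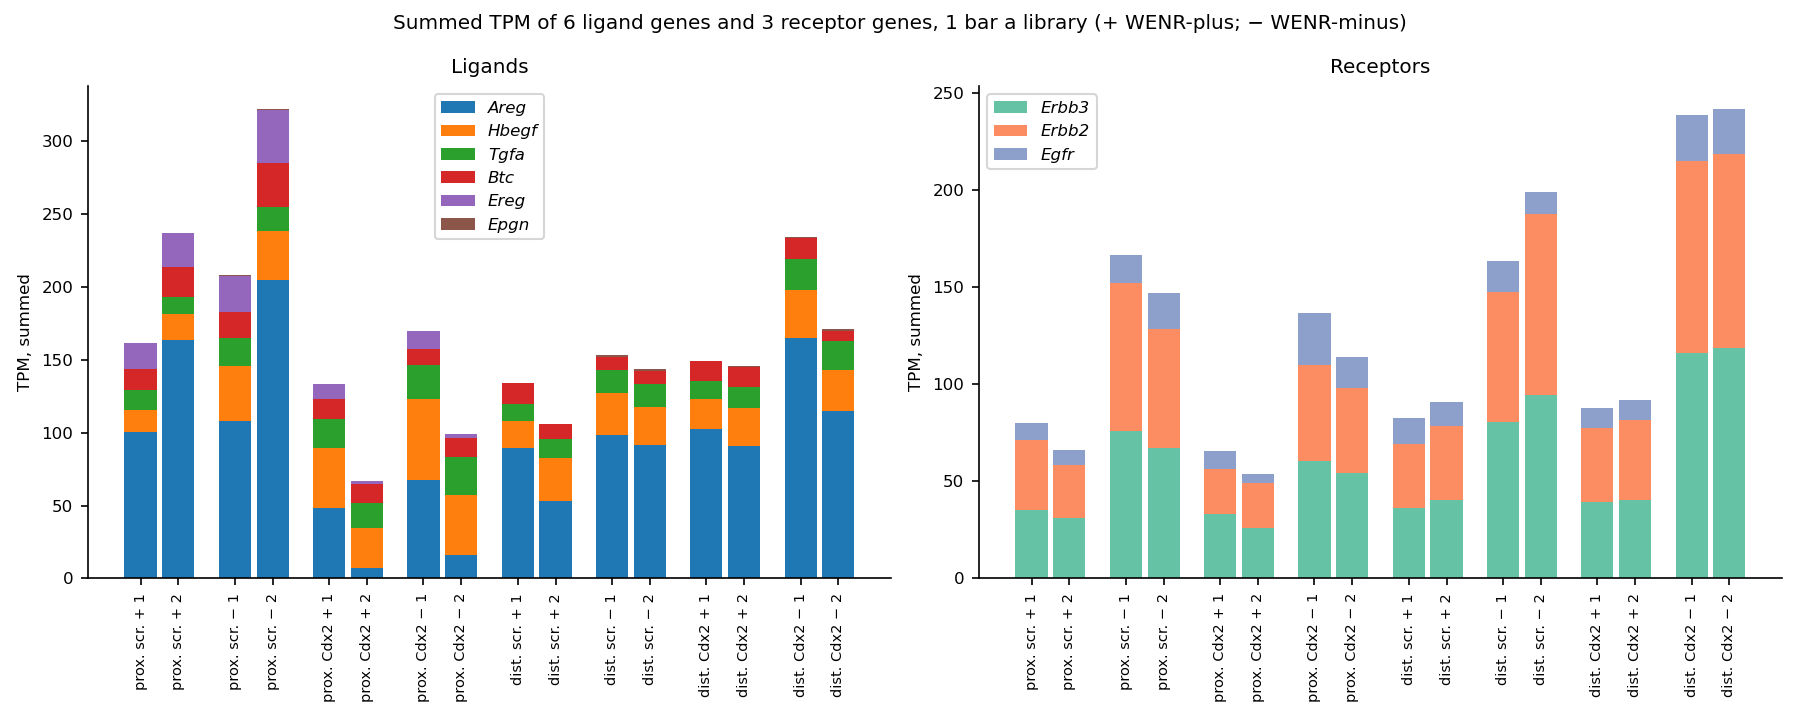
Summed TPM of the 6 ligand genes and the 3 receptor genes in each library (stacked bars from 0; scr. stands for scramble-sgRNA, Cdx2 for Cdx2-sgRNA, + for WENR-plus, − for WENR-minus, 1 and 2 for the replicates). Areg is the largest block in 14 of the 16 libraries and falls to 10.6% of the ligand bar in proximal Cdx2-sgRNA WENR-plus replicate 2.

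Egfr reads split between the full-length transcript Egfr-201 and the shorter protein-coding transcript Egfr-202, to which Salmon gave 5.11 to 13.4% of them. In proximal organoids that share was 9.33 to 13.1% with scramble-sgRNA and 6.46 to 6.83% with Cdx2-sgRNA in WENR-plus, and 8.91 to 11.3% and 5.11 to 5.95% in WENR-minus. The guides did not overlap in either medium. In distal organoids it was 6.80 to 11.1% and 7.15 to 8.78% in WENR-plus, with overlap, and 12.9 to 13.4% and 8.38 to 9.62% in WENR-minus, without. The split is an estimate from shared reads, and no test was run on it.

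Of the ErbB ligands and the receptor outside the 10 genes, Egf, Nrg1 to Nrg4 and Erbb4, only Egf and Nrg1 passed the filter on low counts. Nrg1 encodes neuregulin, a ligand of ERBB3. It was read in proximal Cdx2-sgRNA organoids, at 77 and 142 reads in WENR-plus and 54 and 111 reads in WENR-minus (4.01 to 7.51 CPM). The other 12 libraries held 0 reads except 2, replicate 2 of distal scramble-sgRNA in each medium, with 1 read each. With a floor of 3 counts set for the group without reads, its level in proximal Cdx2-sgRNA organoids was 76.4 times that with scramble-sgRNA in WENR-plus. In WENR-minus it was 60.0 times that level. Against the same floor in distal Cdx2-sgRNA organoids it was 73.4 and 40.4 times as high. The counting error of the Nrg1 reads is not included in these ratios. No test of Nrg1 is given, since the filter kept it through the proximal Cdx2-sgRNA libraries alone. The markers of mesenchyme summed to at most 1.12 CPM in every library. The 6 tuft cell markers summed to 2.52 to 11.6 CPM in the 4 proximal Cdx2-sgRNA libraries and to at most 0.533 CPM in the other 12. Dclk1 was the highest of them, at up to 10.6 CPM. Trpm5, Avil, Pou2f3, Il25 and Sh2d6 did not pass the filter on low counts, and Il25 was at 0 throughout. The sum is thus mostly a reading of Dclk1, and its part in the reads of Nrg1 was not tested. Egf itself was 0.0846 to 1.53 CPM.

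The rest of the pathway was described from lists of 61 genes, of which 56 passed the filter, and without Nrg1 55 are counted here. On withdrawal 22 of the 55 rose and 2 fell in proximal scramble-sgRNA organoids, which is 43.6% beside 29.4% of all genes (median log2 fold change 0.32, beside -0.06). In distal scramble-sgRNA organoids 23 rose and 8 fell, or 56.4% beside 40.4% (0.45, beside -0.11). With Cdx2-sgRNA 10 rose and 5 fell in proximal organoids, or 27.3% beside 13.5% (0.22, beside -0.03), and 26 rose and 9 fell in distal ones, or 63.6% beside 47.0% (0.49, beside -0.10). In a list of 13 genes chosen for receptor restraint, 5, 8, 3 and 10 rose and 0, 1, 0 and 1 fell, in the same order. Of all genes 16.4, 20.3, 8.33 and 23.0% rose and 12.9, 20.2, 5.17 and 24.0% fell. The list includes Grb7, Erbin and Lrig3, which were not shown here to restrain the receptors. Lrig1, outside the list, fell in all 4 lines. Among 18 genes of ERK feedback and output, Spry1 included, 8, 6, 2 and 6 rose and 2, 6, 5 and 5 fell. Errfi1, whose product binds and inhibits EGFR, rose by 2.28 ± 0.37 and 2.68 ± 0.37 on the log2 scale in proximal and distal scramble-sgRNA organoids and by 2.97 ± 0.38 in distal Cdx2-sgRNA ones. Fos, an immediate early target of ERK, rose by 2.41 ± 0.29, 2.26 ± 0.28 and 3.41 ± 0.30 in the same lines, and Dusp5, a phosphatase of ERK, by 2.48 ± 0.40, 2.58 ± 0.40 and 3.23 ± 0.40. Ccnd1, cyclin D1, went the other way in distal scramble-sgRNA organoids (-2.72 ± 0.38, adjusted p = 0.000291), as did Etv4, a transcription factor downstream of ERK, in distal Cdx2-sgRNA organoids (-3.07 ± 0.46, adjusted p = 0.000234) and in proximal ones (-2.47 ± 0.45, adjusted p = 0.00631). In proximal Cdx2-sgRNA organoids Adam10, a sheddase of several EGF family ligands, rose (1.28 ± 0.16, adjusted p = 0.00142), as did Erbin, whose product binds ERBB2 (1.14 ± 0.21, adjusted p = 0.00676), and Spry1, an inhibitor of the Ras to ERK route, fell (-1.29 ± 0.28, adjusted p = 0.0129). Mapk3, which encodes ERK1, rose in proximal scramble-sgRNA organoids (1.39 ± 0.22, adjusted p = 0.00111).

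With Cdx2-sgRNA, 3 of the 55 pathway genes rose and 14 fell in proximal organoids in WENR-minus, a share of 30.9% that is the same as that of all genes (median -0.23, beside 0 over all genes to 2 decimals). In WENR-plus 3 rose and 4 fell, or 12.7% beside 24.8% (0.0045, beside -0.05). In distal organoids 4 rose and 2 fell in WENR-minus, or 10.9% beside 9.76% (0.11, beside 0), and 0 rose and 1 fell in WENR-plus, or 1.82% beside 0.262% (0.03, beside -0.01). The gene that fell in all 4 was Etv5, a transcription factor downstream of ERK, at -4.66 ± 0.40 in proximal WENR-minus, -3.04 ± 0.34 in proximal WENR-plus, -2.88 ± 0.37 in distal WENR-minus and -2.02 ± 0.33 in distal WENR-plus. Lrig3, a relative of Lrig1, fell in proximal organoids (-2.88 ± 0.42, adjusted p = 0.000441 in WENR-minus and -3.17 ± 0.43, adjusted p = 0.000452 in WENR-plus), where Lrig1 did not pass. Spry4, an inhibitor of the Ras to ERK route, fell in proximal WENR-minus (-2.35 ± 0.43, adjusted p = 0.00184), and Ccnd1 rose there (1.90 ± 0.37, adjusted p = 0.00274). In proximal WENR-plus Errfi1 rose (2.51 ± 0.37, adjusted p = 0.000837), beside Hbegf and Tgfa. In distal WENR-minus Dusp6, a phosphatase of ERK, rose (1.04 ± 0.19, adjusted p = 0.00971). Between regions, with scramble-sgRNA, 2 of the 55 stood above and 4 below their distal level in WENR-minus, or 10.9% beside 9.95% of all genes, and 0 did so in WENR-plus in edgeR, where 14 had an unadjusted p under 0.05. With Cdx2-sgRNA 5 stood above and 26 below it in WENR-minus, or 56.4% beside 49.0%, and 2 above and 14 below in WENR-plus, or 29.1% beside 29.3%. With Cdx2-sgRNA in WENR-minus the genes farthest below their distal level were Etv1 (-4.66 ± 0.57, adjusted p = 8.03e-05), Spry4 (-4.63 ± 0.45, adjusted p = 1.53e-05), Dusp5 (-3.14 ± 0.40, adjusted p = 0.000103) and Dusp6 (-2.57 ± 0.20, adjusted p = 3.3e-06).

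The genes whose pattern was most like that of each gene were taken by Pearson r of log2 CPM over the 16 libraries, among 9891 genes. For Erbb3 these were Myh14, Rassf3 and Il22ra1 (r 0.99 each), for Erbb2 2010003K11Rik, Smap1 (0.99 each) and Rassf3 (0.98), and for Egfr Map4, Cdc42bpb (0.96 each) and Tmem184b (0.95). For Lrig1 they were Uck2, Man2a2 (0.98 each) and Nsun2 (0.97). For Hbegf they were Met (0.94), which encodes the receptor of hepatocyte growth factor, Errfi1 (0.93) and Tinagl1 (0.92), and for Tgfa Smad7, Ypel3 (0.97 each) and Ston2 (0.96). For Ereg they were the transcription factor genes Osr2 (0.95), Hoxb8 (0.94) and Tbx3 (0.93), and for Areg Ugt2b34, Cln3 and Nrd1 (0.94 each). Btc had no close match (Guk1 and Flcn at 0.82, Med19 at 0.75). The remaining genes lie at chr11:16752203-16918158 (Egfr, plus strand), chr11:98412470-98437716 (Erbb2, plus), chr10:128567523-128589652 (Erbb3, minus), chr18:36504927-36515805 (Hbegf, minus), chr6:86195223-86275719 (Tgfa, plus) and chr6:94604529-94700158 (Lrig1, minus) in GRCm38.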

How the data were processed

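RNA of 16 organoid libraries had been prepared with a stranded total RNA kit, although the labels list the molecule as genomic DNA. The labels' titles and the methods name the media WENR-plus and WENR-minus, and the labels' protocols ENSW-plus and ENSW-minus, and these were taken to be the same. Per the file headers and the methods, the authors ran Salmon 1.1.0 on GENCODE vM23 transcripts, and the labels name mm10. The estimated counts per transcript were deposited unscaled, 1 table per library, without pooling. The authors also deposited TPM, in which Salmon divides by effective transcript length and library sum. Counts of transcripts matched to GENCODE vM21 were summed per gene and rounded, and 0.257 to 0.509% of counts did not match. Estimated counts of genes with shared reads depend on how Salmon split them. The total counts of 12465194 to 18922143 a library set the precision for the low genes Ereg and Epgn, whose intervals cover counting error only.

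Genes were tested with edgeR 4.0.16 (R 4.3.3), with filterByExpr, TMM scaling and a quasi-likelihood fit over all 8 groups with 8 residual degrees of freedom. A gene passed at a Benjamini-Hochberg adjusted p under 0.05 over 15289 genes, and ± marks the SE, which is the fold change over the root of F. There were 12 comparisons of groups and 5 differences between comparisons. The filter kept Ereg, Epgn and Nrg1 through few groups. In the report Ereg and Epgn are left out of the counts on withdrawal, between regions and of differences between comparisons, and Nrg1 out of those of the pathway lists. The script was tested on simulated data. DESeq2 1.42.0, RLE size factors, no filter, length-scaled counts, a fold threshold, a replicate block, fits to the compared groups alone and omission of each library were the alternatives. The genes and lists were chosen with earlier results of these data known. On withdrawal the 8 genes other than Ereg and Epgn are given in every line. In the other comparisons the genes that passed are named, with some that did not. Of the pathway lists at most 4 genes per comparison are named, taken by size. They passed with a log2 fold change over 1 in either direction and at least 5 CPM in the higher group. Between regions they are named only with Cdx2-sgRNA in WENR-minus.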

Additional observations from a re-analysis of the deposited data

Results flagged for a closer look

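In WENR-minus the effect of Cdx2-sgRNA differed between proximal and distal organoids for 4 of the 8 genes other than Ereg and Epgn by a test of the difference itself (edgeR, adjusted over all genes). Of all genes 17.2% passed that test. On the log2 scale the proximal effect minus the distal effect was -1.24 for Erbb2, -1.08 for Erbb3 and -1.52 for Btc, and 1.61 for Lrig1. Lrig1 was not called with counts scaled for transcript length, nor Btc when the compared libraries alone were fitted. Erbb2 and Erbb3 passed without any 1 of the 8 libraries, whereas Lrig1 passed in 4 and Btc in 2 of 8 such fits. Groups of 2 libraries were too small to look for a library that stands apart by its gap.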

How the results depend on the processing

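Of 557 values of single genes under other settings, 491 kept their direction and side of the threshold. RLE size factors changed no call. The calls named below leave out Ereg and Epgn in comparisons where the low-count filter kept them through 1 side. With a log2 fold change over 1 required, fewer of the 10 genes passed in several comparisons. The number went from 4 to 2 for the medium in proximal Cdx2-sgRNA organoids. For Cdx2-sgRNA it went from 5 to 3, 2 to 1 and 3 to 1 in proximal WENR-minus, proximal WENR-plus and distal WENR-minus. For the medium in distal scramble-sgRNA organoids it went from 7 to 4. Both of those numbers include Epgn, whose test there is not given as a result. Of the other genes, Egfr, Hbegf and Tgfa lost their calls there. Between regions with Cdx2-sgRNA in WENR-plus the number went from 3 to 1. Both of those include Ereg, whose test between regions is not given as a result. Erbb2 and Tgfa lost their calls in that comparison. Fits to the compared groups alone, which have fewer libraries, kept no call for the medium in proximal Cdx2-sgRNA organoids. They kept none for Cdx2-sgRNA in proximal WENR-minus and only that of Lrig1 in distal WENR-minus. They called Areg on withdrawal in distal scramble-sgRNA (adjusted p = 0.0363) and distal Cdx2-sgRNA organoids (0.00633) and in the difference between regions in WENR-minus (0.0486). Without the filter on low counts, Areg and Ereg passed as well for Cdx2-sgRNA in proximal WENR-plus. Between regions in WENR-plus this setting added calls with both guides, Areg among them with Cdx2-sgRNA. It also called Areg and Hbegf for the difference between regions in the effect of Cdx2-sgRNA in WENR-plus. For the difference between guides in the effect of the medium it called Hbegf in proximal and Lrig1 and Egfr in distal organoids. Length-scaled counts kept no call for Cdx2-sgRNA in distal WENR-minus and lost those of Btc and Erbb3 between regions with scramble-sgRNA in WENR-minus. They turned Btc on withdrawal in distal scramble-sgRNA organoids to 0.040, and ended the call of Lrig1 in the difference between regions (1.20, adjusted p = 0.136). DESeq2 called Hbegf for the difference between regions in the effect of Cdx2-sgRNA in WENR-plus, and Areg with Cdx2-sgRNA in proximal WENR-plus. The cause of these shifts was not tested.

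With each library left out in turn, the number of genes that passed was 4 to 6 for the medium in distal scramble-sgRNA and 0 to 4 in proximal Cdx2-sgRNA organoids. For Cdx2-sgRNA it was 1 to 3 in proximal WENR-minus, 0 to 3 in proximal WENR-plus and 0 to 1 in distal WENR-minus. Between regions the number is left out, since it took in Ereg, whose test there is not given as a result. For the difference between regions in the effect of Cdx2-sgRNA it was 2 to 4 in WENR-minus and 0 to 1 in WENR-plus. The effect of the medium crossed 0 for Areg in proximal Cdx2-sgRNA organoids (-0.69 to 2.38; -0.69 without WENR-minus replicate 1 and -0.34 without WENR-plus replicate 2) and for Btc in distal scramble-sgRNA (-0.21 to 0.20) and distal Cdx2-sgRNA organoids (-0.35 to 0.56), none of which passed.

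The labels do not say what a replicate number shares. Same-numbered libraries of the same region and guide deviated together between media (r 0.281 to 0.589 over 4 pairs of groups), and the other 24 pairs of groups had r of -0.059 to 0.189. With the replicate block over all libraries 73 values kept their call, and Areg with Cdx2-sgRNA in proximal WENR-plus passed (-2.41, adjusted p = 0.0331). With a replicate block within each culture, added after seeing the data, Areg on withdrawal passed in distal scramble-sgRNA (0.88), proximal Cdx2-sgRNA (0.69) and distal Cdx2-sgRNA organoids (adjusted p = 0.00104) and Btc in proximal scramble-sgRNA ones (0.63), and no call was lost. With 2 libraries a group and 8 residual degrees of freedom, differences of the size seen for Areg between proximal Cdx2-sgRNA replicates limit what can pass.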
